A study of Mus musculus with 10 samples.

Results

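Transcripts that mark T lymphocytes and natural killer (NK) cells were followed across 10 Affymetrix mg_u74av2 arrays of mouse mammary tumour RNA. The members were 10 genes, taken by name: Cd3e, Cd3d, Cd3g, Cd4, Cd8a, Thy1, Lck, Il2rb, Gzma and Gzmb. The platform annotation used here gave a probe set to 9 of them, 10 probe sets in all, among 8252 genes with a probe set of a single symbol and 12488 probe sets on the array. No probe set annotated to Lck, the kinase that phosphorylates the CD3 chains, was found in that annotation. The label of a lymphocyte gene set was checked on the arrays themselves: above background on all 9 strain arrays were Cd4 and Thy1 alone, and the CD3 chains, which define T cells, were at background on most of them.

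Tumours came from adult female mice aged 90 days, in a study of animals carrying the MMTV-PyMT transgene. That transgene places the polyoma middle T oncogene under a viral promoter active in mammary epithelium. The array titles name ILn (arrays A and B), LP (A and B), MOLF (A and B), NZB (A and B) and FVBn (array B only), and the strain label reads FVB/Nj for every array, so the strain groups rest on the titles. The titles call these 9 arrays a mix and do not say what was mixed, and nothing states that the 2 arrays of a strain are separate animals; p-values measure the spread between arrays, which may be technical. One array has no strain name in its title. That title also lacks the word mix, and its date is shared by no strain array. This array is shown apart and entered no strain comparison.

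T cells recognise antigen through a receptor that signals by way of the CD3 gamma, delta and epsilon chains, with CD4 or CD8 as co-receptor. Cytotoxic T cells and NK cells kill by releasing granzymes through perforin pores, and both use the IL-2 receptor beta chain to receive interleukin-2 and interleukin-15. Mammary tumours of PyMT mice are known to be infiltrated by macrophages and CD4 T cells. In bulk RNA, fewer cells of a type and less RNA per cell cannot be told apart.

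The genes of the 3 CD3 chains lie together on chromosome 9, and Cd3d and Cd3g are read in opposite directions from start sites 1355 bases apart. The 250 bases before each start site are shown because these genes share a locus. Any bearing of these sequences on the array readings was not tested. The sequences are from RefSeq (GRCm38.p6), each on its gene's strand: Cd3e chr9:45009612-45009861 (minus), Cd3d chr9:44981536-44981785 (plus) and Cd3g chr9:44980432-44980681 (minus). Capitals mark matches, on either strand, to 6 motifs: the E-box written CAGNTG, the ETS motif written AGGAAG, the RUNX motif written TGTGGT, the TCF/LEF motif written ATCAAAG, the GATA motif written AGATAA and the TATA box written TATAAA. None of the matches printed here overlap one another.
Cd3e: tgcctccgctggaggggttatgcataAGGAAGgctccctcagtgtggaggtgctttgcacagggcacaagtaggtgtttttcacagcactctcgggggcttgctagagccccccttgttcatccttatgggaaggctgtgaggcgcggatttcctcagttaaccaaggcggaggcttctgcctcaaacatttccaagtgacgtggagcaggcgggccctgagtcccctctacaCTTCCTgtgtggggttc
Cd3d: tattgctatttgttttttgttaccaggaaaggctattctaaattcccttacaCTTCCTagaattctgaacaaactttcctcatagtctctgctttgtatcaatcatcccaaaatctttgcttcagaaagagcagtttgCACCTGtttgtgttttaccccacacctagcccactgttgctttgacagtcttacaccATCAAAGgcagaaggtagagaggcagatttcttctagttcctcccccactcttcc
Cd3g: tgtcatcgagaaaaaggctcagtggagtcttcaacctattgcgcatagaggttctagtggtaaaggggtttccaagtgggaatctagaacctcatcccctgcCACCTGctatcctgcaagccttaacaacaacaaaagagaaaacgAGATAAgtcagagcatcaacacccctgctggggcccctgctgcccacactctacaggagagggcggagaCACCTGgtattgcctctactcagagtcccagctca
The Cd3e window held 2 ETS matches. The Cd3d window held 1 E-box, 1 ETS and 1 TCF/LEF match, and the Cd3g window held 2 E-box matches and 1 GATA match. Among all 32851 promoter windows of this length in the table, 44.8% held the E-box letters, 29.5% ETS, 14% RUNX, 3.21% TCF/LEF, 9.99% GATA and 12.4% TATA. The RUNX and TATA letters were in none of the 3 windows. A match describes letters only. The promoter table had an entry for 7 of the 10 members.

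Levels below are normalized log2 intensities. Each array was brought to the same distribution, and the floor, the 30th percentile of values, was 4.75; a reading under it counts as background. Levels of different genes are not compared, since a probe set's brightness depends on its probes. The percentile gives a probe set's rank among all those of the same array.

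Of the CD3 chains, Cd3e (CD3 epsilon) stayed near the floor on every strain array. It read 4.18 and 4.37 on ILn A and B, 4.74 and 4.49 on LP, 4.40 and 4.33 on MOLF, 4.60 and 4.85 on NZB, and 4.13 on the FVBn array. NZB B alone was above the floor, and all 9 readings lay between percentiles 23.5 and 31.1 of their arrays. No strain stood clear of the others. With the floor lowered to the 20th percentile, Cd3e was above it on all 9 strain arrays and no member was called.

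Cd3d (CD3 delta) was at the floor on all 9 strain arrays. Its readings were 4.38 and 3.40 on ILn A and B, 3.42 and 4.22 on LP, 0.55 and 3.59 on MOLF, 2.49 and 2.20 on NZB, and 2.91 on FVBn. Values under the floor have no order, so no strain was higher than another. A second Cd3d probe set was at the floor on all 10 arrays.

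Cd3g (CD3 gamma) was high on 2 strain arrays and at the floor on the other 7. It read 4.25 and 3.28 on ILn A and B, 2.37 and 4.29 on LP, 6.87 and 0.97 on MOLF, 3.14 and 7.26 on NZB, and 3.34 on FVBn. MOLF A and NZB B were the high arrays, at percentiles 59.1 and 65.5, while their partners MOLF B and NZB A were at percentiles 2.36 and 14.3. The 3 chains therefore did not all clear the floor together on either array. On MOLF A, Cd3g was above the floor while Cd3d and Cd3e were at it. On NZB B, Cd3g and, narrowly, Cd3e (4.85) were above it, and Cd3d was at it.

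MOLF A and NZB B stood apart over the whole array, and this touches every member whose high readings lie on them. The correlation of MOLF A and NZB B was 0.927, while either gave 0.812 to 0.868 with the remaining 7 arrays, among which no pair fell under 0.931. Of 2499 probe sets at the floor on those 7 arrays, 16.6% were above it on MOLF A, 18.8% on NZB B and 12.4% on both. Of all 10833 non-control probe sets with a single symbol, 2.34% were above the floor on both of these arrays and on none of the other 7. Among the 9 members with a probe set, Cd3g and Gzma had that pattern. The pan-leukocyte marker list averaged -0.23 on MOLF A and -0.14 on NZB B, relative to its mean over the 9 arrays, and -0.20 to 0.20 on the other 7. By the same measure, a T cell receptor list averaged 0.16 and 0.31 on MOLF A and NZB B, and -0.17 to 0.08 on the other 7. An NK cell and cytotoxic granule list averaged 0.25 and 0.48, and -0.23 to -0.01 on the other 7. B cell markers averaged 0.04 and 0.20, and macrophage markers -0.08 and -0.07. How far the lift of dim probe sets accounts for the Cd3g and Gzma readings was not tested.

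**Figure D1:**
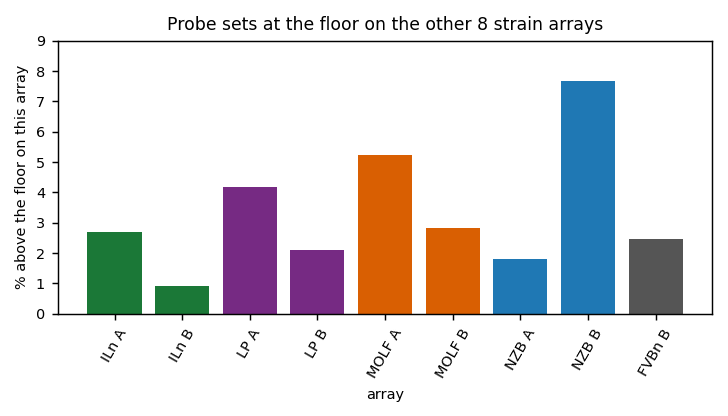
Share (%) of the probe sets at the floor on the other 8 strain arrays that were above it on the array named on the x axis, 1 bar per array. NZB B (7.68%) and MOLF A (5.22%) have the highest shares and ILn B (0.927%) the lowest.

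Cd4, the co-receptor of helper T cells, which some dendritic cells also carry, was above the floor on all 9 strain arrays. It read 6.89 and 6.31 on ILn A and B, 7.31 and 6.79 on LP, 7.08 and 6.60 on MOLF and 6.57 and 7.64 on NZB, against 5.56 on FVBn. The single FVBn array was below all 8 others, which overlapped freely. By mean the order was NZB 7.10 ± 0.76, LP 7.05 ± 0.37, MOLF 6.84 ± 0.34 and ILn 6.60 ± 0.41 (SD, n = 2 arrays each), then FVBn, and no neighbours among the first 4 differed beyond their spread. The 4 strains minus FVBn gave a log2 difference of 1.34 (SE 0.507, 95% confidence interval 0.15 to 2.53), with an unadjusted p of 0.0323 in limma. FVBn is 1 array, so the error and interval assume that it varies like the other strains. After Benjamini-Hochberg adjustment over all probe sets the p was 0.998, so the difference did not pass the test. Among arrays of the FVBn array's own title date, the difference was 1.005.

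Cd8a, the co-receptor of cytotoxic T cells, was above the floor on NZB B alone. Its readings were 2.18 and 2.21 on ILn A and B, 4.08 and 1.75 on LP, 4.15 and 2.80 on MOLF, 2.14 and 5.13 on NZB, and 2.07 on FVBn. Its partner chain Cd8b1 was likewise above the floor on NZB B only, at 5.27. Cd3e, Cd3d and Cd8a were above the floor on fewer than 2 strain arrays and were not tested.

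Thy1, a surface protein of T cells that fibroblasts also carry, was above the floor on all 9 strain arrays. It read 7.17 and 7.18 on ILn A and B, 6.77 and 6.32 on LP, 5.88 and 6.74 on MOLF, and 6.76 and 6.84 on NZB, with 6.10 on FVBn. Both ILn arrays were above the other 7, and the other strains overlapped. The means ran ILn 7.18 ± 0.01, NZB 6.80 ± 0.06, LP 6.54 ± 0.32 and MOLF 6.31 ± 0.61 (SD, n = 2 each), then 6.10 on FVBn. ILn and NZB did not overlap, and below NZB no neighbours differed beyond their spread. ILn minus the mean of LP, MOLF and NZB was 0.62 (95% interval -0.15 to 1.40), with an adjusted p of 0.788 in limma. A list of 10 fibroblast markers averaged 0.52 and 0.43 on ILn A and B, 0.20 on FVBn and -0.34 to 0.01 on the other 6, with 9 or 10 of the 10 above the floor on each array. The part of fibroblast RNA in the Thy1 readings was not tested.

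Il2rb, the receptor chain shared by interleukin-2 and interleukin-15, was above the floor on 8 of the 9 strain arrays. It read 4.18 and 4.94 on ILn A and B, 5.30 and 5.39 on LP, 7.07 and 5.67 on MOLF, 4.78 and 6.51 on NZB, and 5.47 on FVBn. MOLF A and NZB B were again the highest, and ILn A was at the floor. With readings at the floor set to it, the means ran MOLF 6.37 ± 0.98, NZB 5.64 ± 1.22, FVBn 5.47, LP 5.35 ± 0.06 and ILn 4.85 ± 0.13 (SD, n = 2 each but FVBn, 1 array). MOLF, NZB and FVBn did not differ beyond their spread. Both LP arrays were below the FVBn array and above both ILn arrays.

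MOLF minus the mean of ILn, LP and NZB for Il2rb was 1.09 (95% interval -0.14 to 2.32), with an adjusted p of 0.836 in limma. Among arrays of 1 title date, without MOLF A and NZB B, the same difference was 0.64. ILn minus NZB was -1.76 on the title date that holds ILn A and NZB B, and 0.16 on the date that holds ILn B and NZB A. LP minus MOLF was -1.76 on the date of LP A and MOLF A, and -0.29 on that of LP B and MOLF B. Both larger differences involve MOLF A or NZB B. The arrays that share their dates, LP A and ILn A, read 5.30 and 4.18. With 1 array per strain and date, strain, array and date cannot be told apart, and the cause of the high readings was not tested.

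Gzma (granzyme A, a serine protease of cytotoxic granules) followed the Cd3g pattern. It read 4.13 and 3.27 on ILn A and B, 1.25 and 4.52 on LP, 6.82 and 2.61 on MOLF, 2.37 and 5.32 on NZB, and 3.40 on FVBn. MOLF A and NZB B were above the floor and the other 7 arrays at it. MOLF minus ILn, LP and NZB was 0.94 on values set to the floor (95% interval -0.20 to 2.08), an uncalled difference carried by MOLF A.

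Gzmb (granzyme B, the caspase-cleaving protease of the same granules) had another order. It read 5.95 and 5.44 on ILn A and B, 5.44 and 4.12 on LP, 4.84 and 5.07 on MOLF, 5.39 and 4.22 on NZB, and 5.55 on FVBn. It was at the floor on LP B and NZB B, so NZB B was high for Gzma and low for Gzmb. With readings at the floor set to it, the means were 5.70 ± 0.36 for ILn, 5.10 ± 0.49 for LP, 5.07 ± 0.45 for NZB and 4.96 ± 0.16 for MOLF (SD, n = 2 each). FVBn was at 5.55, and no neighbours differed beyond their spread. The LP and NZB means and SDs each hold 1 reading raised to the floor. ILn minus LP, MOLF and NZB was 0.65 (95% interval -0.05 to 1.35), with an adjusted p of 0.740 in limma, and 0.37 within 1 title date.

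**Figure D2:**
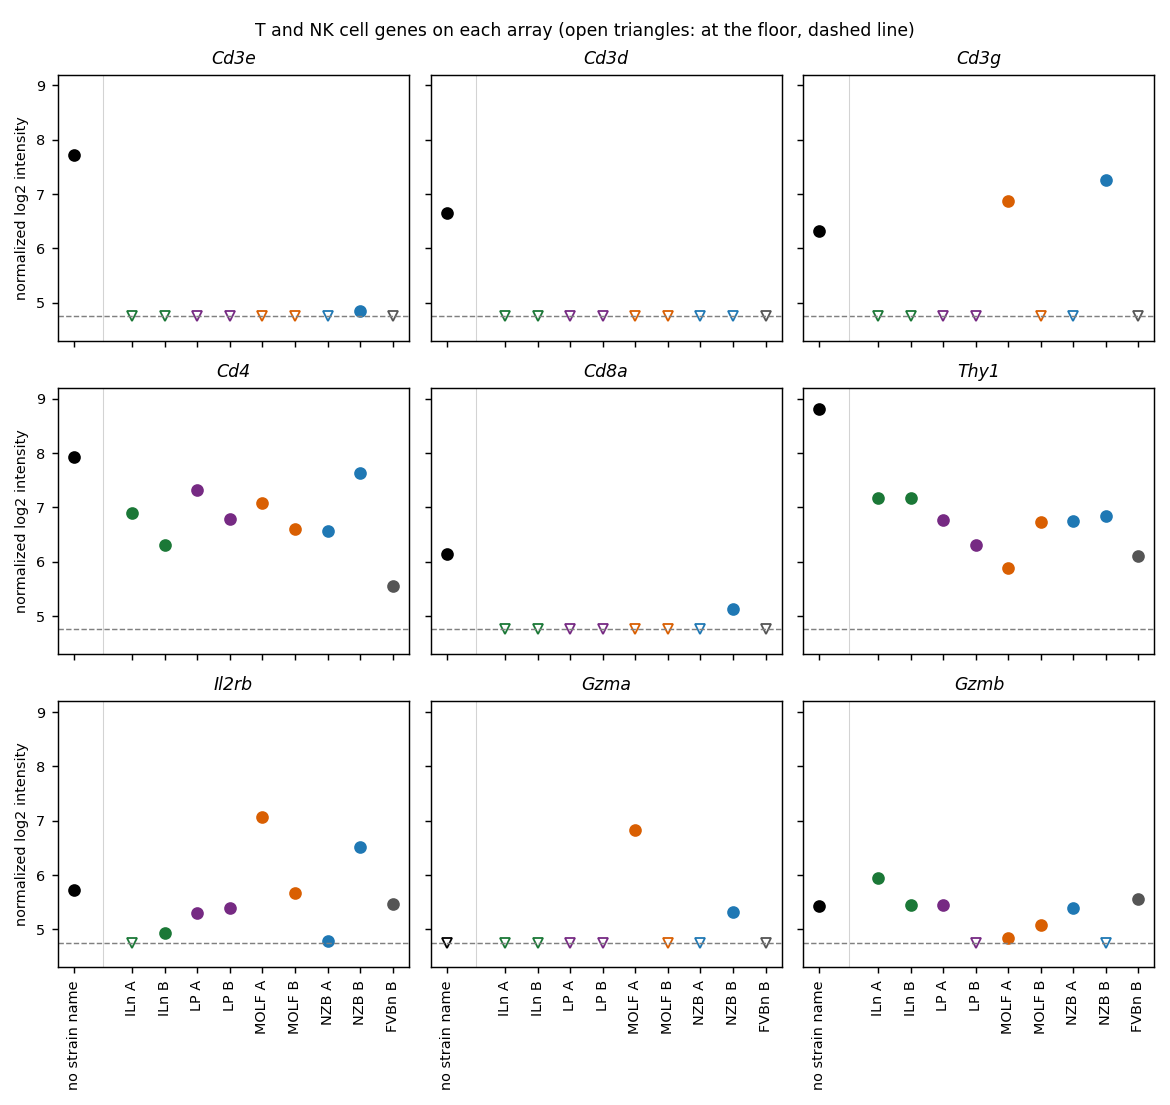
Normalized log2 intensity (y axis) of the main probe set of each of the 9 members with one, 1 panel per gene and 1 point per array, with the array that has no strain name on the left and FVBn on the right. The dashed line is the floor (4.75) and open triangles are readings at it; Cd4 and Thy1 are above it everywhere, while Cd3g and Gzma clear it among strain arrays on MOLF A and NZB B only.

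None of the 6 tested members (Cd3g, Cd4, Thy1, Il2rb, Gzma and Gzmb) passed limma's test at an adjusted p of 0.05 in any of 8 comparisons. Cd3g and Gzma entered the test only through MOLF A and NZB B. The F test compared the 4 strain names with 2 arrays and left out FVBn. It called 0 of 6 members, beside 0.748% of 9897 probe sets, and 0 members had an unadjusted p under 0.05. For each strain against the mean of the other strains with 2 arrays, again 0 of 6 were called and 0 had an unadjusted p under 0.05. The share of all probe sets called was 0.394% for ILn, 0.313% for LP, 0.414% for MOLF and 0.101% for NZB.

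For the 4 strains minus FVBn, 0 of 6 were called, beside 0.313% of all probe sets, and Cd4 alone had an unadjusted p under 0.05. ILn minus NZB and LP minus MOLF also gave 0 of 6 called and 0 at an unadjusted p under 0.05, with 0.354% and 0.445% of all probe sets called. The lowest adjusted p of any member was 0.618. With so few probe sets called at all, a count of 0 among 6 lies near the background. The intervals were wide: that for Cd3g in NZB minus ILn, LP and MOLF ran from -0.80 to 2.60 around 0.90.

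**Figure D3:**
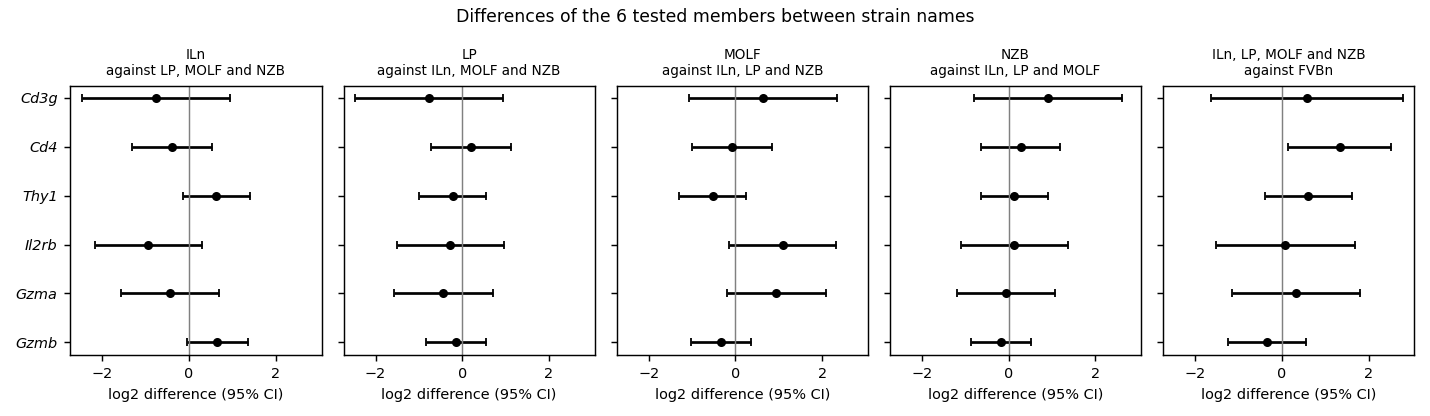
Log2 differences with 95% confidence intervals from limma (x axis) for the 6 tested members, 1 panel per comparison. The panels show ILn, LP, MOLF or NZB minus the mean of the others of these 4, and last the mean of these 4 minus FVBn. ILn minus NZB and LP minus MOLF are not shown. Only the interval of Cd4 in the 4 strains minus FVBn excludes 0 (0.15 to 2.53, unadjusted).

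The genes whose pattern over the 9 strain arrays was most like a member's were found by Pearson r on floored values, as a description. For the CD3 chains, of which Cd3g alone was tested, the 5 nearest were Cyp17a1, Krt13, Vldlr, Esx1 and Syp. Each was at the floor on 7 arrays, as Cd3g was. Of 8780 probe sets compared, 719 (8.19%) had an r above 0.9 with Cd3g, a likeness that MOLF A and NZB B supply. For the mean of Gzma and Gzmb the nearest were Mafg (0.930), Ing4 (0.926), Yy1 (0.919), Slc27a3 (0.915) and Fam207a (0.909), and 7 probe sets (0.0797%) exceeded 0.9. All points share the same 9 arrays.

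Further lists describe the pathways around the members, and no gene of the T cell receptor, interleukin receptor and transcription factor lists passed the test. Of 36 genes of the T cell receptor complex and its signalling, 22 had a probe set and 16 were tested. In each of the 8 comparisons limma called 0 of 16, and 0 to 2 had an unadjusted p under 0.05. The smallest F test p-values belonged to Fyn, a Src-family kinase that acts beside Lck, and Tnfrsf9, the co-stimulatory receptor 4-1BB, with adjusted p of 0.596 and 0.700 in limma.

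Fyn read 5.95 and 5.96 on ILn A and B, 5.07 and 5.41 on LP, 6.57 and 5.91 on MOLF, 6.41 and 7.11 on NZB, and 6.16 on FVBn. It was lowest on both LP arrays and highest on NZB B. Tnfrsf9 was at the floor on MOLF A and NZB B and close to it throughout. With those readings set to the floor, its mean was highest in LP, at 5.57 ± 0.17, and lowest in MOLF, at 4.79 ± 0.05. ILn was at 5.09 ± 0.08, NZB at 4.98 ± 0.31 (SD, n = 2 each) and FVBn at 5.22.

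Of 14 genes of the interleukin-2 and interleukin-15 receptor pathway, 12 had a probe set and 9 were tested. Limma called 0 of 9 in each comparison, with 0 to 2 at an unadjusted p under 0.05. Il15, the cytokine that sustains NK cells, was at the floor on all 9 strain arrays. The smallest F test p-values were those of Stat5b and Jak1, the transcription factor and kinase downstream of the receptor, with adjusted p of 0.492 and 0.590 in limma. Stat5b was highest on FVBn (6.84) and at the floor on NZB B, and Jak1 lay between 8.03 on NZB B and 9.38 on LP A.

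Of 16 lymphoid transcription factors, 10 had a probe set and 9 were tested, with 0 of 9 called and 0 to 1 at an unadjusted p under 0.05. Lef1, a partner of beta-catenin in T cell development that epithelia also use, read 6.94 on ILn B to 8.41 on MOLF B, with an adjusted F test p of 0.616 in limma and 0.827 for its second probe set. Gata3 is the regulator of both T helper cells and luminal mammary epithelium. It read 9.85 on ILn A to 10.45 on MOLF A, and limma gave an adjusted F test p of 0.789.

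Of 38 NK cell and cytotoxic granule genes, 28 had a probe set and 19 were tested. Limma called 1 of 19, Ccl5, in the F test, in LP against the other strains and in LP minus MOLF, and 0 of 19 in the other 5 comparisons, where 0 to 3 had an unadjusted p under 0.05. The NK receptor Ncr1, the death ligand Fasl, the granule proteases Ctsw and Gzmk, and Ifng were at the floor on all 9 strain arrays. Perforin (Prf1), which opens the target membrane for granzymes, read highest on NZB B at 7.02, and the NK receptor Klrk1 was above the floor on MOLF A (6.42) and NZB B (7.01) alone.

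Ccl5, a chemokine that draws T cells and is made by activated T and NK cells among others, was higher on both LP arrays. It read 6.53 and 6.22 on LP A and B and was at the floor on the other 7 strain arrays. Ccl5 entered the test through the LP arrays alone, so it had to differ, and since all others were at the floor, LP was at least 3.08-fold higher than the strains ILn, MOLF and NZB. The log2 difference on floored values was 1.62 with an SE of 0.182 and an adjusted p of 0.0222 in limma, where the other strains have no spread because all their readings are at the floor. LP minus MOLF had an adjusted p of 0.0342 in limma, kept in 2 of 12 alternatives (0.0178 to 0.212). The F test had one of 0.0429 in limma, also kept in 2 of 12 (0.0173 to 0.372). Of all probe sets, 0.192% were called higher in LP and 0.303% higher in LP than MOLF.

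The Ccl5 call in LP was kept in 5 of 12 alternative settings that could test it, over which the adjusted p ran from 0.00727 to 0.375 in limma. It was lost with the title date or the array letter as a block, without MOLF A and NZB B, and without ILn A, ILn B, NZB A or NZB B, while the log2 difference stayed between 1.57 and 2.57. On LP A and B, relative to each list's mean over the 9 arrays, skeletal muscle markers averaged 1.62 and 1.55 and salivary gland markers -2.12 and -2.60. On NZB A and B, where Ccl5 was at the floor, the same lists averaged 1.25 and 1.16 for muscle and -2.19 and -2.53 for salivary gland. Pan-leukocyte markers averaged 0.11 and 0.17 on LP and macrophage markers 0.02 and 0.04. Their part in the Ccl5 reading was not tested.

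Targets of interferon gamma, the cytokine that T and NK cells release, and T cell chemoattractants made a list of 25 genes, of which 22 had a probe set and 20 were tested. Limma called 3 of 20 in the F test, beside 0.748% of all probe sets. It called 2 higher in LP (median log2 difference of the 20 genes 0.58, against -0.01 over all probe sets), beside 0.192%. Of these 2, Gbp2b entered the test only through the LP arrays, so it had to differ. Limma also called 3 lower in MOLF (median -0.76, against 0.01), beside 0.283% of all probe sets. It called 3 higher in LP than MOLF (median 1.08, against 0), beside 0.303%. Skeletal muscle markers moved the same way: 6 of 8 were called lower in MOLF (median -2.44) and 6 of 8 higher in LP than MOLF (median 3.26), and the list averaged -1.37 and -1.57 on MOLF A and B. Pan-leukocyte markers averaged -0.23 and -0.20 on MOLF A and B, with 0 of 13 called in either comparison by limma and 2 of 13 at an unadjusted p under 0.05 in each. Their part in the interferon target values was not tested. In the other 4 comparisons 0 of 20 were called, and 5 to 7 had an unadjusted p under 0.05. The T cell chemoattractants Cxcl9 and Cxcl10, themselves strong targets of this cytokine, were at the floor on all 9 strain arrays.

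Gbp3, an interferon-induced GTPase, read 9.53 and 9.66 on LP A and B, 8.62 and 8.49 on NZB, 7.98 and 7.84 on ILn, 6.53 and 6.71 on MOLF and 7.54 on FVBn. LP was above every other array and MOLF below every other one. LP minus MOLF was 2.98 (SE 0.197, adjusted p = 0.00305 in limma), and 13 of 15 alternatives kept the call; it was lost without LP A or LP B, with adjusted p up to 0.0755 and down to 0.000525 over all of them. Its calls in LP against the other strains (9 of 15 kept) and in MOLF against the other strains (11 of 15 kept) were lost with title date as a block, without MOLF A and NZB B, and without ILn A or ILn B, and the LP one also without LP A or LP B.

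H2-Eb1, an MHC class II chain that presents antigen to CD4 T cells, read 5.38 on MOLF A and was at the floor on MOLF B, and read 7.17 to 9.28 on the other 7. MOLF was lower than ILn, LP and NZB, with a log2 difference of -3.44 on floored values (adjusted p = 0.0149 in limma), where MOLF was measured on 1 of 2 arrays. The call was kept in 6 of 14 alternatives (adjusted p from 0.0107 to 0.118). Iigp1, another interferon-induced GTPase, was lower in MOLF by -1.81 (adjusted p = 0.0149 in limma), kept in 5 of 15 (0.00644 to 0.222). A second Iigp1 probe set gave -1.37 and did not pass (adjusted p = 0.213 in limma). Gbp2b was above the floor on LP A (6.05) and LP B (6.48) only and, like Ccl5, entered the test through them against strains with no spread. It was at least 2.84-fold higher in LP than in ILn, MOLF and NZB (adjusted p = 0.0300 in limma), kept in 2 of 12 alternatives (0.0255 to 0.375). The 3 calls were each lost without MOLF A and NZB B together and without ILn A or ILn B; those of H2-Eb1 and Iigp1 also without LP A, LP B, MOLF A or MOLF B, and that of Gbp2b without MOLF A, MOLF B, NZB A or NZB B. Title date as a block ended the Iigp1 and Gbp2b calls, and array letter as a block that of Gbp2b. Median centring also ended the Iigp1 and Gbp2b calls, and testing with no filter on dim probe sets ended those of H2-Eb1 and Iigp1.

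**Figure D4:**
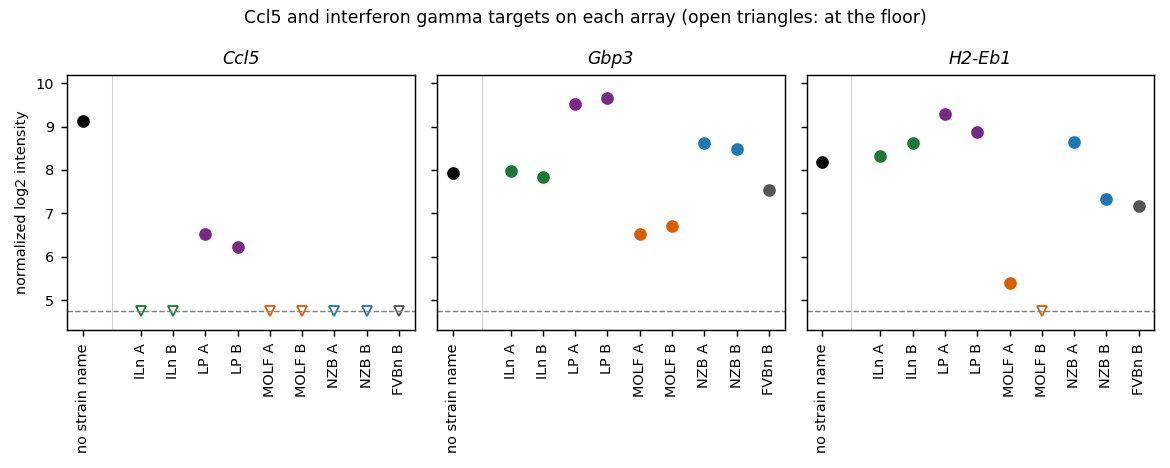
Normalized log2 intensity (y axis) of Ccl5, Gbp3 and H2-Eb1 on each array, with the array that has no strain name on the left, the dashed floor at 4.75 and open triangles at the floor. Ccl5 clears the floor among strain arrays on LP A (6.53) and LP B (6.22) alone, Gbp3 is highest on LP and lowest on MOLF, and H2-Eb1 is lowest on MOLF.

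The array with no strain name carried T cell transcripts well above the strain arrays. It is 1 array with no group, so its values are described and not tested. No strain array shares its title date, so date and sample cannot be told apart in these values. Cd3e read 7.71 there (percentile 73.1), against 4.13 to 4.85 on the strain arrays, or 7.30-fold the highest of them. Cd3d read 6.65, at least 3.71-fold above the floor at which all 9 strain arrays lay. Cd8a read 6.14, or 2.01-fold the highest strain array.

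Thy1 read 8.80 on the array with no strain name, or 3.07-fold the highest strain array (7.18 on ILn B). Cd4 read 7.93, or 1.23-fold the highest (7.64 on NZB B). All 3 CD3 chains were above the floor on that array, with Cd3g at 6.32, a level exceeded on MOLF A and NZB B. In contrast to these, Gzma was at the floor there, and Il2rb (5.73) and Gzmb (5.43) lay within the range of the strain arrays.

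In all, 5 of the 9 members were above the floor and above all 9 strain arrays on the array with no strain name, beside 15.3% of 10833 probe sets with a single symbol. Among the lists, the same was seen for 10 of 22 T cell receptor genes, 3 of 10 lymphoid transcription factors and 11 of 22 interferon gamma targets. It was seen for 4 of 28 NK cell and cytotoxic genes (14.3%) and 2 of 12 interleukin-2 and interleukin-15 pathway genes (16.7%), near the share over all. Below all 9 strain arrays were 3 of the 10 transcription factors, among them Gata3 (8.76 against at least 9.85), and 2 of the 28 NK cell and cytotoxic genes. No gene of the other lists named here was below all 9. Ccl5 read 9.13 there.

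Markers of other cell types also differed on the array with no strain name. Above all 9 strain arrays were 10 of 13 pan-leukocyte, 9 of 14 B cell, 5 of 7 lymph node stroma and homing, 2 of 5 immature thymocyte, 2 of 14 macrophage, 7 of 10 fibroblast and 8 of 8 skeletal muscle markers. None of 10 epithelial tumour markers and none of 7 salivary gland markers were, and 6 of the 10 epithelial markers were above the floor but below all 9 strain arrays. Also below all 9 were 3 of 7 salivary gland, 2 of 14 macrophage, 1 of 14 B cell and 1 of 13 pan-leukocyte markers. Krt8, a keratin of luminal epithelium, read 9.97 there against 10.81 to 11.40 on the strain arrays, and Epcam, an epithelial adhesion protein, 7.67 against 8.53 to 9.48. The part of any of these tissues in its T cell readings was not tested.

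**Figure D5:**
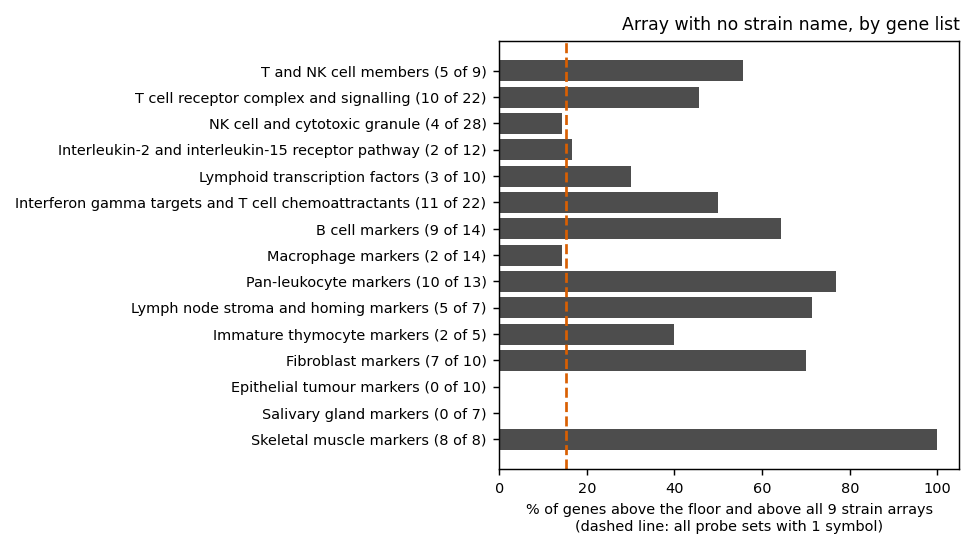
Share (%) of each gene list whose reading on the array with no strain name was above the floor and above all 9 strain arrays, 1 bar per list; the dashed line is the share over all probe sets with a single symbol (15.3%). Skeletal muscle (100%) and pan-leukocyte (76.9%) markers have the highest shares, the T and NK cell members reach 55.6%, and epithelial and salivary gland markers are at 0.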

How the data were processed

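Total RNA of 10 mammary tumour samples was measured on Affymetrix mg_u74av2 arrays. The deposited values are probe set intensity on a linear scale. How probes were summarised: not given in the sources used here. After trimming 2% at each end, the array mean was about 150.1, except for ILn A (500.2).

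The 9 strain arrays were quantile-normalized (limma 3.58.1, R 4.3.3), and the remaining array was mapped to their distribution. Values under the 30th percentile of non-control probe sets (intensity 27.0) were set to it. Probe sets above it on at least 2 of 9 arrays were tested (9897 of 12422), with lmFit, eBayes with a trend and Benjamini-Hochberg adjustment over all. A model of 5 strain groups had 4 residual degrees of freedom.

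Gene names come from the platform annotation: 10855 probe sets had 1 symbol, 396 several and 1237 none; 10839 Entrez identifiers matched the RefSeq table. A gene's main probe set is that with the highest mean among those tested. From each list, up to 4 genes past the test were named, or otherwise those with the smallest F test p. The members and lists were chosen with earlier results of these data known. Alternatives were median centring, other floors and filters, title date or array letter as a block, and leaving out arrays.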

Additional observations from a re-analysis of the deposited data

Results flagged for a closer look

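On the array with no strain name, which entered no comparison, 5 members read above the floor and above all 9 strain arrays, at normalized log2 intensities of 7.71 for Cd3e, 6.65 for Cd3d, 7.93 for Cd4, 6.14 for Cd8a and 8.80 for Thy1. The strain arrays reached at most 4.85 for Cd3e, 7.64 for Cd4, 5.13 for Cd8a and 7.18 for Thy1, and all 9 were at the floor for Cd3d. The same 5 members stood above all strain arrays with a floor at the 20th percentile and with median centring, where 16.3% and 14.4% of all probe sets with a single symbol did so, against 15.3% as reported. No group has 4 or more arrays, so single arrays within a strain could not be tested as outliers.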

How the results depend on the processing

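Under 15 alternative settings, each count of members called stayed at 0 (120 counts over the 8 comparisons), and the lowest adjusted p of any member was 0.0793 in limma, for Gzma in MOLF against the other strains without MOLF B. Of 560 single differences, 36 took the other sign while uncalled, 2 came to exactly 0 and 0 passed the test. With the replicate block (array letter) 0 members were called; the letters do not pair the arrays, since deviations of same-letter arrays correlated at -0.71 to 0.13 over 6 strain pairs. The F test over strain names called 74 probe sets of the whole table, 36 with median centring, 18 with title date as a block, 31 with the replicate block, 19 without MOLF A and NZB B and 14 to 60 without 1 array in turn. With the floor at the 20th percentile all 9 members with a probe set were tested, Cd3e was above it on all 9 strain arrays, and 0 were called. Limits: most strains have 2 arrays and FVBn 1, the median SD within strains was 0.337 on the log2 scale, and 3 of 9 members were too dim to test, so a difference in them was not detectable at this signal.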

Other observations

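Further lymphoid genes of the lists stood out on the array with no strain name. The ones given here were chosen after their values were seen, from those above all 9 strain arrays. Not all list genes were: 10 of 22 T cell receptor, 9 of 14 B cell and 10 of 13 pan-leukocyte genes had that pattern. Blnk, of the B cell list, was below all 9 (6.54 against at least 7.53). The T cell genes Cd247, Lat and Fyn lay within the range of the strain arrays. Cd8b1, the second CD8 chain, read 6.95 there against at most 5.27 on the strain arrays, and the T cell surface proteins Cd5 and Cd28 read 6.94 and 6.65 against at most 5.39 and 5.11. The B cell genes Ms4a1 (CD20) and Cd79b read 8.90 and 8.18 against at most 7.60 and 6.06. Ptprc (CD45), carried by all leukocytes, read 8.05 against at most 6.14, and Ltb, a cytokine that organises lymphoid tissue, 9.62 against at most 7.16. Cxcl13, the chemokine of B cell follicles, read 7.40, and Cxcl9, a T cell chemoattractant, 6.31, with all 9 strain arrays at the floor for both.

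Gzmd, a granzyme known from NK cells of the pregnant uterus, had values unlike those of Gzma among the strains. It read 6.08 and 5.90 on ILn A and B, 5.03 on NZB A and 4.96 on FVBn, and was at the floor on the other 5 strain arrays and on the array with no strain name. It was chosen after its values were seen. Granzyme genes of this cluster are near-identical in sequence, and whether the probe set reads only Gzmd was not tested.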
